A study of Mus musculus with 11 samples.

Results

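Runx3 and Brn3a peaks were examined at 6 mechanotransduction genes, Piezo1, Piezo2, Asic1, Asic2, Asic3 and Whrn, of 21911 protein-coding genes in all. The peaks had been mapped by CUT&RUN, in which an antibody directs micrococcal nuclease to the DNA around its target, in TrkC neurons from mouse dorsal root ganglia (DRG) at E12.5. All libraries came from GFP-positive cells sorted from Runx3-BAC-GFP-CB6 transgenic embryos, so the sorted population is the one in which the Runx3 BAC drives GFP, with 300000 to 600000 cells per library. There were 3 libraries with anti-Runx3, 4 with anti-Brn3a, 3 with anti-H3K27Ac and 1 with normal rabbit serum, and no other genotype or age. The lists used here hold 25883 Runx3 peaks and 32887 Brn3a peaks on the nuclear genome, each found in at least 2 libraries of its antibody. A peak was counted for a gene when its centre lay in the regulatory domain of that gene, which runs from 5 kb upstream to 1 kb downstream of the gene start and is extended on both sides to the corresponding windows of the neighbouring protein-coding genes, by at most 1 Mb. A region is called co-bound where a Runx3 and a Brn3a peak share at least 1 bp, and any other peak is called alone. All positions are of the GRCm38 (mm10) assembly.

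TrkC neurons give rise to the proprioceptors of the DRG, whose endings in muscle sense stretch and tension. This stretch is turned into current by ion channels, of which Piezo2 is the main one known in mouse proprioceptors. Piezo1, its only paralogue, is a pressure-gated channel best known from blood vessels and red blood cells. Asic1, Asic2 and Asic3 encode acid-sensing sodium channel subunits that are related to the touch channels of nematodes. Whrn encodes whirlin, a PDZ scaffold protein of the stereocilia of hair cells that is also made by mouse proprioceptors. Of the mapped transcription factors (TFs), Runx3 is needed for TrkC neurons to extend their axons and survive, and Brn3a, a POU-homeodomain protein encoded by Pou4f1, is made by nearly all developing sensory neurons. Of the genes used to check the cell label, promoter peaks of at least 1 of the TFs were found at Runx3, Etv1, Pou4f1 and Isl1, but none at Ntrk3, which encodes TrkC, and none at the glial, vascular and blood genes Sox10, Erbb3, Foxd3, Pecam1, Cdh5 and Hba-a1. Peaks of a TF mark its occupancy and do not measure expression, so these genes say little about which cells were present.

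All 6 genes had at least 1 peak of each TF in their domains, against 63% of all protein-coding genes for Runx3 and 57.6% for Brn3a. In all, 22 Runx3 peaks and 35 Brn3a peaks lay in the 6 domains. Whrn and Piezo2 had the most Runx3 peaks, with 6 each, followed by Asic1 with 4, Asic2 with 3, Asic3 with 2 and Piezo1 with 1. This order depends on how peaks are assigned to genes. By the nearest gene start Asic1 had 3 Runx3 peaks and Whrn and Piezo2 2 each, and within the gene body and 5 kb on each side Asic2 had 14 and Piezo2 1. In the domains, Brn3a peaks were most numerous at Piezo2, which had 18, while Asic1 had 6, Asic2 and Whrn had 4 each, Piezo1 had 2 and Asic3 had 1. Co-bound regions were found at 5 of the 6 genes, with 3 at Piezo2, 3 at Asic1 and 1 each at Asic2, Asic3 and Whrn, and none at Piezo1. Over all protein-coding genes 31.9% had a co-bound region. By the nearest gene start, co-bound regions remained at Piezo2, Asic1 and Asic2 only. Among peaks of at least the median width of each list, they remained at Piezo2 and Asic1 only. The median over the 6 genes was 3.5 Runx3 peaks, 4 Brn3a peaks and 1 co-bound region, and over all genes it was 1, 1 and 0. The domains of the 6 genes span 21.7 kb to 724.9 kb around a median of 89.7 kb for all genes. Longer domains tended to hold more peaks, so the counts are set beside genes of like domain length further on.

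**Figure D1:**
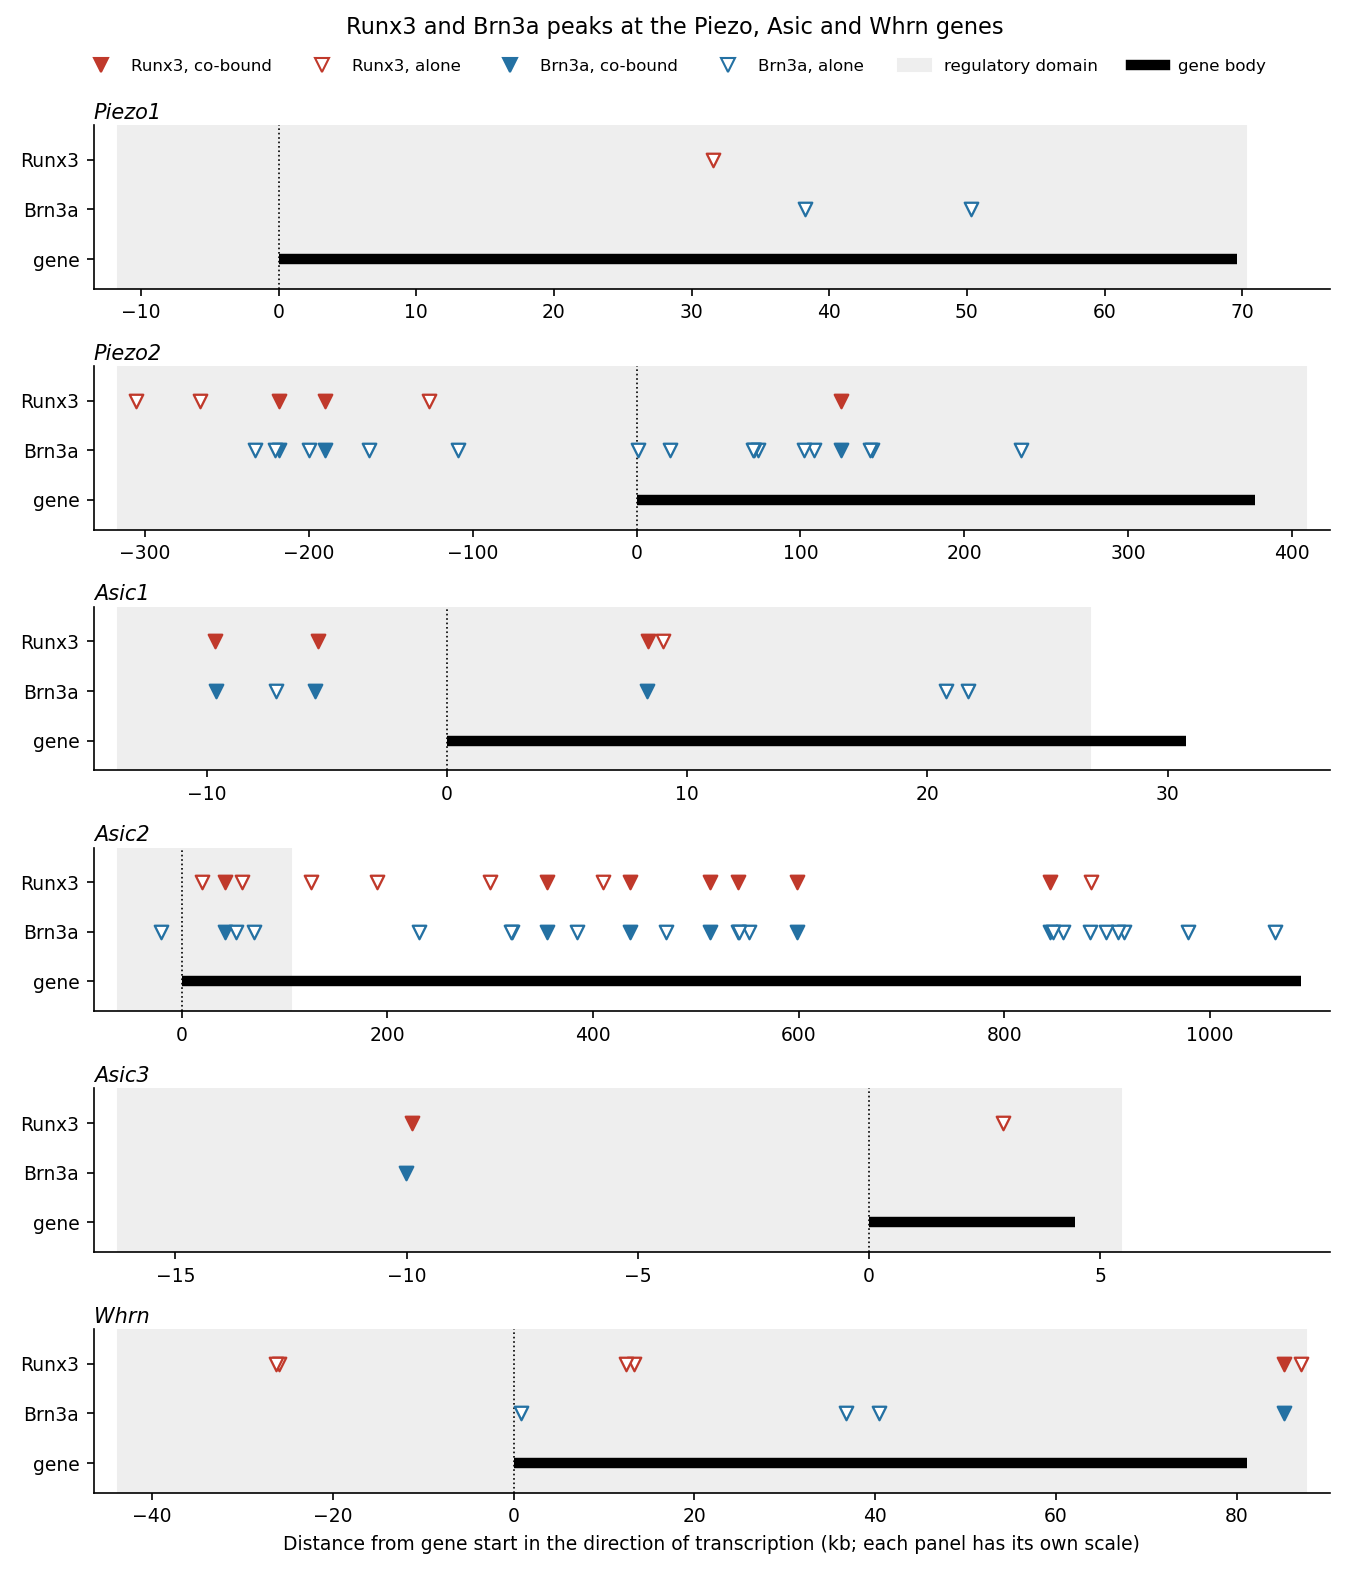
Positions of Runx3 peaks (upper row) and Brn3a peaks (middle row) along the 6 genes, as distance of the peak centre from the gene start in kb, with the gene body as a black bar and the regulatory domain shaded. Filled symbols are co-bound peaks and open symbols are peaks of 1 TF alone. Peaks at Piezo2 lie both upstream and within the gene, and at Asic2 most peaks within the gene lie beyond the domain.

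Promoter occupancy was seen for Brn3a only. No member had a Runx3 peak centred within 1 kb of a transcript start, whereas 36.2% of all protein-coding genes did. Brn3a promoter peaks were found at 3 of the 6 genes, Piezo2, Asic1 and Whrn, against 20.7% of all protein-coding genes. None of these 3 peaks overlapped a Runx3 peak. With 6 genes, these counts describe the genes and say nothing about mechanotransduction genes at large.

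Piezo2 is a gene of 377.0 kb on the minus strand of chromosome 18, at chr18:63010213-63387183, with a domain of 724.9 kb that reaches 316.5 kb upstream. Its 18 Brn3a peaks were split between the gene body, with 11, and upstream DNA, with 7, whereas 5 of its 6 Runx3 peaks lay upstream. The Brn3a peak closest to the gene start, chr18:63386282-63386470, was centred 807 bp downstream in the 5′ UTR of exon 1, and 81 bp downstream of the start of a shorter annotated transcript. It had 71.4% GC and 21 CpG and was the only Brn3a peak at Piezo2 in a promoter. It carried no V$BRNF, the motif family of Brn TFs that the Brn3a table scores as present or absent in each peak.

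The co-bound region inside Piezo2 lay in intron 2, 124.7 kb downstream of the gene start. Its Brn3a peak at chr18:63262154-63262748 was 595 bp wide, the widest of the 35, and its Runx3 peak at chr18:63262240-63262776 was 537 bp wide. These peaks shared 509 bp and their centres were 57 bp apart. Both motifs were present, with 2 RUNX binding sites (RBS) in the Runx3 peak and V$BRNF in the Brn3a peak. The region held the Brn3 word TTAATGA 10 bp from the centre of the Runx3 peak and 47 bp from that of the Brn3a peak. The RUNX words of the region lay 94 and 194 bp from the centre of the Runx3 peak. An RBS here is the word TGTGGT on either strand, with C also allowed as the third and as the last base, and the number in the Runx3 table equalled the count of these words in all 25883 peaks. The 10 other Brn3a peaks of the gene body were alone, and 8 of the 11 lay in introns 2 and 3. One pair of them, chr18:63315628-63315741 and chr18:63315761-63316005, lay side by side, the first without and the second with V$BRNF.

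The other 2 co-bound regions of Piezo2 lay upstream in intergenic DNA. At 189.9 kb upstream, the Runx3 peak chr18:63576888-63577244 lay wholly inside the Brn3a peak chr18:63576853-63577297, with 9 bp between the centres, 2 RBS and V$BRNF. At 218.2 kb upstream, the Runx3 peak chr18:63605268-63605467 lay wholly inside the Brn3a peak chr18:63605179-63605520, with 18 bp between the centres and V$BRNF but no RBS. Of the Runx3 peaks alone, the one 126.5 kb upstream, chr18:63513564-63513895, held 2 RBS, and those 266.4 kb and 305.3 kb upstream held none. The farthest of these, chr18:63692391-63692552 with 71.0% GC, lay within 1 kb of a transcript start of the neighbouring gene Txnl1. Both upstream co-bound regions were nearer to the start of Wdr7, the next gene that the domain rule uses, than to Piezo2, at 131.6 kb and 103.3 kb. The transcript start of Txnl1 lies closer to both regions than Wdr7 does, but the domain rule uses only the 5′ end of each gene. Over the domain, V$BRNF was present in 12 of 18 Brn3a peaks and an RBS in 3 of 6 Runx3 peaks.

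Among all protein-coding genes, the counts of Piezo2 were equalled by Plppr1 and Sorcs3, with 6 Runx3 peaks, 18 Brn3a peaks and 3 co-bound regions each in domains of 742.6 kb and 1267 kb. The next most alike, Rnf32, had 6, 17 and 3 in 905.1 kb. Likeness was the sum over these 3 measures of the differences in log2 of the count plus 1, which was 0 for Plppr1 and Sorcs3 and 0.08 for Rnf32.

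Piezo1 had 3 peaks, as few as Asic3, and no co-bound region. The gene spans 69.6 kb on the minus strand at chr8:122481698-122551329, and its domain, cut short by neighbouring genes, is 82.0 kb long. Its single Runx3 peak, chr8:122519700-122519799, lay in intron 1, 31.6 kb from the gene start, was 100 bp wide and held 3 RBS. Of all Runx3 peaks narrower than 200 bp, 4.07% held 3 or more. The peak is printed because it packs these sites most closely, with the RUNX words in capitals, all of them on the minus strand (5′ to 3′ on the plus strand, RefSeq GRCm38).
Piezo1 Runx3 peak: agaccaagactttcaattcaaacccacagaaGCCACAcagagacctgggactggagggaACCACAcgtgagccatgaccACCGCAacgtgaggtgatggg
The Brn3a peaks of Piezo1 lay 38.3 kb and 50.3 kb downstream, in introns 2 and 10, and were 131 and 118 bp wide. Neither carried V$BRNF, and both were nearer to the start of Ctu2 than to that of Piezo1.

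Asic1 was the most densely occupied of the 6 genes by both TFs. The gene spans 30.8 kb on the plus strand at chr15:99670368-99701130, and its 40.5 kb domain held 4 Runx3 peaks and 6 Brn3a peaks, or 9.88 and 14.8 peaks per 100 kb. Asic3 followed with 9.22 Runx3 and 4.61 Brn3a peaks per 100 kb, which rest on 2 peaks and 1 peak in a domain of 21.7 kb. The other 4 genes had 0.828 to 4.57 Runx3 peaks and 2.37 to 3.04 Brn3a peaks per 100 kb. Over all genes the medians were 0.767 and 0.668 per 100 kb. Of the 4 Runx3 peaks at Asic1, 3 were co-bound, and of the 6 Brn3a peaks 5 carried V$BRNF.

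The co-bound regions of Asic1 lay within 10 kb of the gene start on both sides. The farthest upstream, at chr15:99660420-99660981, was 9.67 kb from the gene start and 562 bp wide, the width of the Runx3 peak, in which the Brn3a peak of 300 bp lay entirely. It held 3 RBS and V$BRNF, and lay slightly nearer to the start of Racgap1, at 9.04 kb. The Brn3 word TTAATGA was 15 bp from the centre of the Brn3a peak and 55 bp from that of the Runx3 peak. The RUNX words lay toward the edges of the Runx3 peak, 171 to 213 bp from its centre. The second, at chr15:99664584-99665151, was a Brn3a peak of 568 bp with V$BRNF and 63.4% GC that enclosed a Runx3 peak of 97 bp without RBS, 5.37 kb upstream. The third, at chr15:99678549-99678883, lay in intron 3, 8.35 kb downstream, with V$BRNF and no RBS. A Runx3 peak alone with 1 RBS, chr15:99679240-99679489, lay in the same intron beside it.

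The middle of the first region and a Brn3a peak alone are printed to show the Brn3 word, in capitals, that these Asic1 peaks share (5′ to 3′ on the plus strand, RefSeq GRCm38). The first stretch is chr15:99660551-99660850, the central 300 bp, and holds none of the 3 RUNX words. The second is the whole peak chr15:99663176-99663294, 7.13 kb upstream of Asic1, in which the word is on the minus strand.
Asic1 co-bound region: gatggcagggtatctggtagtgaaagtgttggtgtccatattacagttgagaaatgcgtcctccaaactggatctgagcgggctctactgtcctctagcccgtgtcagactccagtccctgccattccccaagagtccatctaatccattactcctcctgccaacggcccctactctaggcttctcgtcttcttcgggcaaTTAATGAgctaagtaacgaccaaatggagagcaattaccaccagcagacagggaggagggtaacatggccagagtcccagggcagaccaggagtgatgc
Asic1 Brn3a peak alone: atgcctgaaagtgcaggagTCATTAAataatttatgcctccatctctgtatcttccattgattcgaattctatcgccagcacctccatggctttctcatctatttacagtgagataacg
TTAATGA on either strand was present in 6 of the 35 Brn3a peaks of the 6 genes and in 9.41% of all Brn3a peaks. V$BRNF was present in 54.2% of all Brn3a peaks. The other Brn3a peaks of Asic1 did not hold TTAATGA, and whether Brn3a binds at this word was not tested.

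Asic1 has a second transcript start 21.9 kb inside the gene, from which a shorter transcript begins. The Brn3a peak chr15:99691904-99692240, 337 bp wide with V$BRNF, was centred 161 bp before this start. Another Brn3a peak, chr15:99691057-99691204, was centred 1103 bp before it, just outside the promoter limit, and had no V$BRNF. Both lay in intron 3 of the long transcript, and neither overlapped a Runx3 peak. At the gene start itself no peak of either TF was found within 5 kb.

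Asic3, the shortest of the genes at 4.44 kb (chr5:24413392-24417835, plus strand), had 2 Runx3 peaks and 1 Brn3a peak in a domain of 21.7 kb. The Brn3a peak and 1 Runx3 peak formed a co-bound region at chr5:24403304-24403699, 9.89 kb upstream, inside the neighbouring gene Abcb8, a mitochondrial transporter, whose start was 9.84 kb away. Both peaks began at the same base, the Runx3 peak was 396 bp wide and the Brn3a peak 140 bp wide, and their centres were 128 bp apart. The region held 2 RBS, both outside the Brn3a peak, and no V$BRNF. It is the only co-bound region of the 6 genes with RBS and without V$BRNF. The central 300 bp, chr5:24403352-24403651, are printed with the RUNX words in capitals (5′ to 3′, plus strand, RefSeq GRCm38).
Asic3 co-bound region: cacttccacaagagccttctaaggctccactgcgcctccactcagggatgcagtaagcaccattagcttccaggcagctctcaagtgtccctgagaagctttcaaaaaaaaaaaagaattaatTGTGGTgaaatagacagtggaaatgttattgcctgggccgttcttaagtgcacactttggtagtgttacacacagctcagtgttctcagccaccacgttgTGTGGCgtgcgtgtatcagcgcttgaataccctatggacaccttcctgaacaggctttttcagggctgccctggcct
The word ATTAAT, which reads the same on both strands and holds the TAAT core of homeodomain sites, directly precedes the first RUNX word. Like the RUNX words, this ATTAAT lies in the Runx3 peak and outside the Brn3a peak. ATTAAT was looked for after this was seen, and was present in 16.7% of all Brn3a peaks and 4.68% of all Runx3 peaks. The other Runx3 peak, chr5:24416219-24416333, lay in coding exon 4 of Asic3, 2.88 kb from the gene start, and held 1 RBS. It was the only Runx3 peak of the 22 in a coding exon.

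Asic2 has most of its peaks outside its regulatory domain. The gene spans 1088 kb on the minus strand at chr11:80880169-81968457, but another annotated protein-coding gene, 5530401A14Rik, starts 107.8 kb inside it and ends the domain there, at 168.9 kb in length. Within the domain lay 3 Runx3 peaks and 4 Brn3a peaks. The co-bound region, chr11:81926498-81926702, lay in intron 1, 41.9 kb from the gene start, with neither RBS nor V$BRNF. The other Runx3 peaks, 20.4 kb and 58.8 kb from the gene start in the same intron, held 1 RBS each. Of the Brn3a peaks alone, 2 lay in intron 1 and 1 lay 20.02 kb upstream.

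The rest of the Asic2 gene body held a further 11 Runx3 peaks and 21 Brn3a peaks, which brought the whole gene to 14 and 24. Of the 11 and of the 21, 6 each were co-bound, so that 6 more regions were shared, between 355.1 kb and 844.6 kb from the gene start. Among these 6 regions, 1 held an RBS and V$BRNF, 3 held V$BRNF alone and 2 held neither. The Runx3 peak with most RBS in the gene, 4, lay 884.6 kb from the gene start at chr11:81083723-81083990. The second transcript start of Asic2 lies deep in the gene, and no peak of either TF was centred within 1 kb of it.

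Whrn was the only gene besides Asic3 with more Runx3 than Brn3a peaks, 6 against 4. The gene spans 81.1 kb on the minus strand at chr4:63414910-63495991, in a domain of 131.4 kb. The Brn3a peak chr4:63495139-63495279 was centred in the coding part of exon 1, 782 bp downstream of the gene start and 450 bp upstream of another transcript start. It had 83.7% GC, the highest of all 57 peaks, and 28 CpG, but no V$BRNF. In intron 1 followed 2 Runx3 peaks alone, 12.4 kb and 13.4 kb from the gene start, and in intron 3 followed 2 Brn3a peaks alone, 36.7 kb and 40.4 kb from it. The Runx3 peak chr4:63482542-63482704, at 13.4 kb, held 3 RBS in 163 bp, all of the form TGTGGT. The Brn3a peak chr4:63459182-63459314, at 36.7 kb, held V$BRNF and TTAATGA. These peaks are printed because each shows the word of 1 TF and none of the other, together with the GC-rich promoter peak, whose only RUNX word is of the form TGCGGC on the minus strand (words in capitals, 5′ to 3′ on the plus strand, RefSeq GRCm38).
Whrn Runx3 peak alone: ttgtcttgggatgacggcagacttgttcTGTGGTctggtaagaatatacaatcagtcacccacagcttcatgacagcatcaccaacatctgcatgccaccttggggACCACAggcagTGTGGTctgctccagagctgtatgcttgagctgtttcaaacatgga
Whrn Brn3a peak alone: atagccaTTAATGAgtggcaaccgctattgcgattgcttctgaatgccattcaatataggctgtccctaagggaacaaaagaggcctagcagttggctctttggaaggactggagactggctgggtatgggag
Whrn Brn3a promoter peak: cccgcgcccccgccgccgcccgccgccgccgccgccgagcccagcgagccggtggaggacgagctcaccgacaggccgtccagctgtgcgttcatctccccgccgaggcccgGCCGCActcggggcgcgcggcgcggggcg
The only co-bound region of Whrn, chr4:63410612-63410894, lay beyond the end of the gene, 85.2 kb from the gene start, and had 61.8% GC in its Runx3 peak and neither RBS nor V$BRNF. It was 7.40 kb from the start of Akna. Upstream of Whrn, a Runx3 peak with 2 RBS at chr4:63521780-63522101 had a narrower peak without RBS, chr4:63522154-63522270, next to it, and both were nearer to the start of Atp6v1g1.

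**Figure D2:**
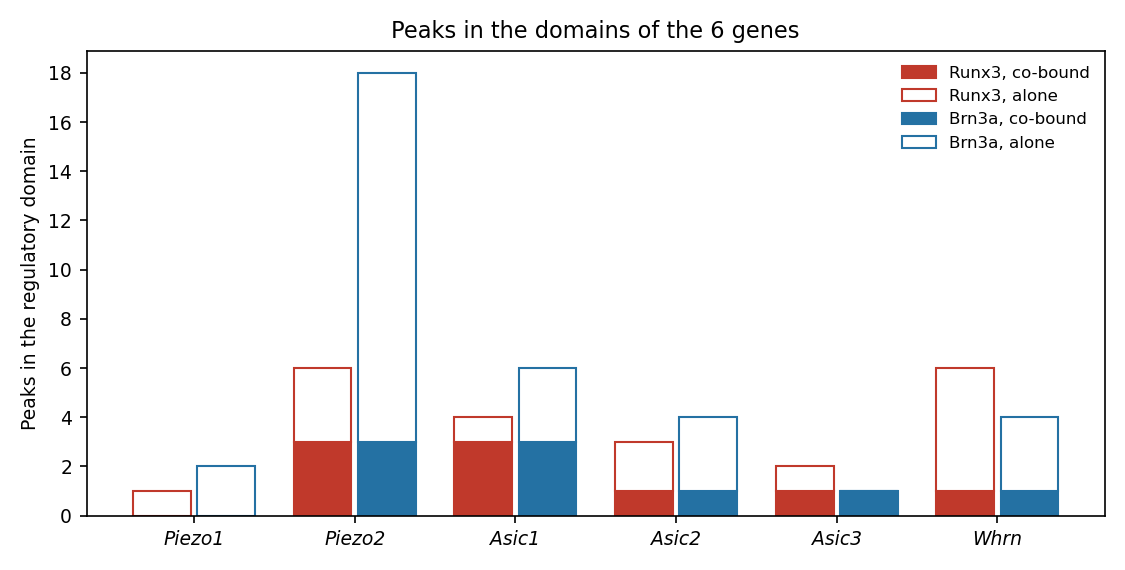
Number of Runx3 peaks (left bar of each pair) and Brn3a peaks (right bar) in the regulatory domain of each gene, split into co-bound peaks (filled) and peaks of 1 TF alone (open). The Brn3a bar of Piezo2 reaches 18, of which 3 were co-bound, and at Asic1 3 of 4 Runx3 peaks were co-bound.

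The share of co-bound peaks at the 6 genes was near that of all peaks. Of the 22 Runx3 peaks 9 were co-bound, or 40.9% (Wilson 95% interval 23.3% to 61.3%), against 32.7% of all Runx3 peaks. Of the 35 Brn3a peaks 9 were co-bound, or 25.7% (14.2% to 42.1%), against 25.6% of all Brn3a peaks. Both background values lie inside the intervals, which cover counting error only. The centres of overlapping peaks were 9 to 132 bp apart, with a median of 37 bp. Of the 9 co-bound regions, 3 held both motifs, 1 an RBS alone, 3 V$BRNF alone and 2 neither. Over all 8343 co-bound regions these classes made up 29.2%, 26.9%, 18.6% and 25.4%.

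An RBS was present in 13 of the 22 Runx3 peaks, or 59.1% (38.7% to 76.7%), against 61.3% of all Runx3 peaks. Among the co-bound Runx3 peaks 4 of 9 held an RBS, against 55.6% of all co-bound Runx3 peaks, and among those alone 9 of 13 did, against 64.0% of all. V$BRNF was present in 20 of the 35 Brn3a peaks, or 57.1% (40.9% to 72.0%), against 54.2% of all Brn3a peaks. It was found in 6 of 9 co-bound Brn3a peaks, or 66.7% (35.4% to 87.9%), and in 14 of 26 alone, or 53.8% (35.5% to 71.2%). Over all Brn3a peaks the order was the other way, with 47.5% of those co-bound and 56.6% of those alone, but both values lie inside the intervals. None of these shares differs from its background by more than the counting interval. The intervals treat peaks as independent, although 18 of the 35 Brn3a peaks came from Piezo2, and they are wide for subsets of 9 peaks. RUNX words occurred in 11 of the 35 Brn3a peaks, or 31.4%, against 32.9% of all Brn3a peaks.

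Runx3 peaks with many RBS were narrow as well as wide at these genes. Of the 3 Runx3 peaks with 3 RBS, at Piezo1, Whrn and Asic1, the widths were 100, 163 and 562 bp, and co-bound Runx3 peaks of 275 and 283 bp at Asic1 and Whrn held none. Peaks with 3 or more RBS made up 9.22% of all Runx3 peaks. Runx3 peaks with an RBS had a median width of 322 bp and those without one 162 bp, beside 199 bp and 144 bp over all Runx3 peaks. The 20 Brn3a peaks with V$BRNF were 103 to 595 bp wide and the 15 without it 70 to 189 bp, with medians of 261 bp with and 131 bp without. Over all Brn3a peaks the medians were 206 bp with V$BRNF and 136 bp without. A wider peak offers more bases for a match, and the part of width in these counts was not tested. Co-bound peaks were wider than those alone, with medians of 283 bp and 162 bp for Runx3 and of 322 bp and 141.5 bp for Brn3a, beside 223 bp and 156 bp, and 234 bp and 154 bp, over all peaks.

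**Figure D3:**
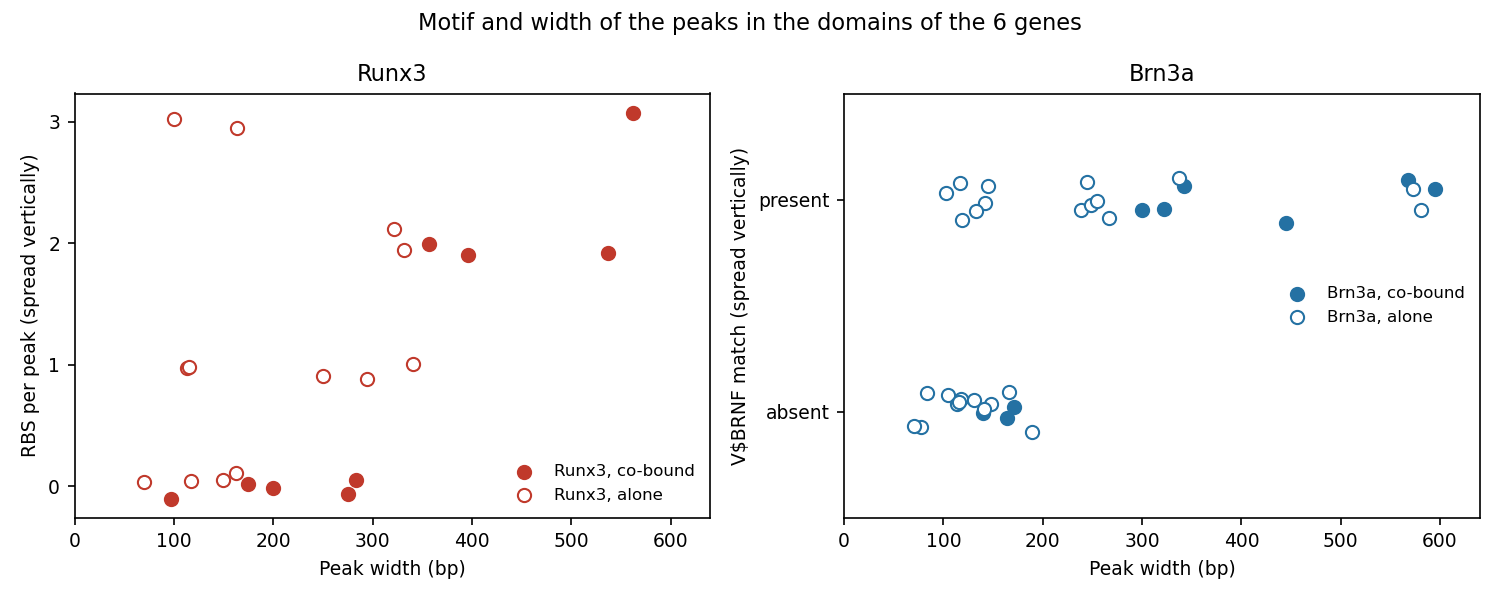
Number of RBS in each of the 22 Runx3 peaks (left) and presence of V$BRNF in each of the 35 Brn3a peaks (right) against peak width in bp. Filled points are co-bound peaks, open points are peaks alone, and points are spread vertically for legibility. No Brn3a peak without V$BRNF is wider than 189 bp, and 2 of the 3 Runx3 peaks with 3 RBS are 100 and 163 bp wide.

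Longer domains tended to hold more peaks, so each gene was set beside the 500 other protein-coding genes nearest to it in domain length. Asic1 stood highest, since its 4 Runx3 peaks were exceeded by 0.4% of such genes, its 3 co-bound regions by 0.2% and its 6 Brn3a peaks by none of the 500, whose median was 0 for each of these. By the nearest gene start, however, Asic1 kept only 3 Runx3 peaks, 3 Brn3a peaks and 2 co-bound regions. Whrn had more Runx3 peaks than 95% of genes of like length, with a median of 1, and more Brn3a peaks than 87%, also with a median of 1. Of its 6 Runx3 peaks, however, 4 lay nearer to the start of another gene. None of its Brn3a peaks reached the median width of all Brn3a peaks, 171 bp. Asic3 had more Runx3 peaks than 84%, more Brn3a peaks than 71% and more co-bound regions than 86.2% of such genes, with medians of 0. These shares rest on 2 Runx3 peaks, 1 Brn3a peak and 1 co-bound region. By the nearest gene start Asic3 kept 1 Runx3 peak and neither a Brn3a peak nor a co-bound region. Piezo2, with the most Brn3a peaks by number, had more than 85% of genes of like length, whose median was 8 with quartiles of 3 and 14, and its 6 Runx3 peaks exceeded 63.2%, beside a median of 4. Asic2, counted in its domain, exceeded 67.4% for Runx3 and 77% for Brn3a. Piezo1 had the median number of Runx3 peaks, 1, and its 2 Brn3a peaks exceeded 71.4%, beside a median of 1. These values describe where each gene stood and are not tests, since the genes were chosen with results of these data known.

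**Figure D4:**
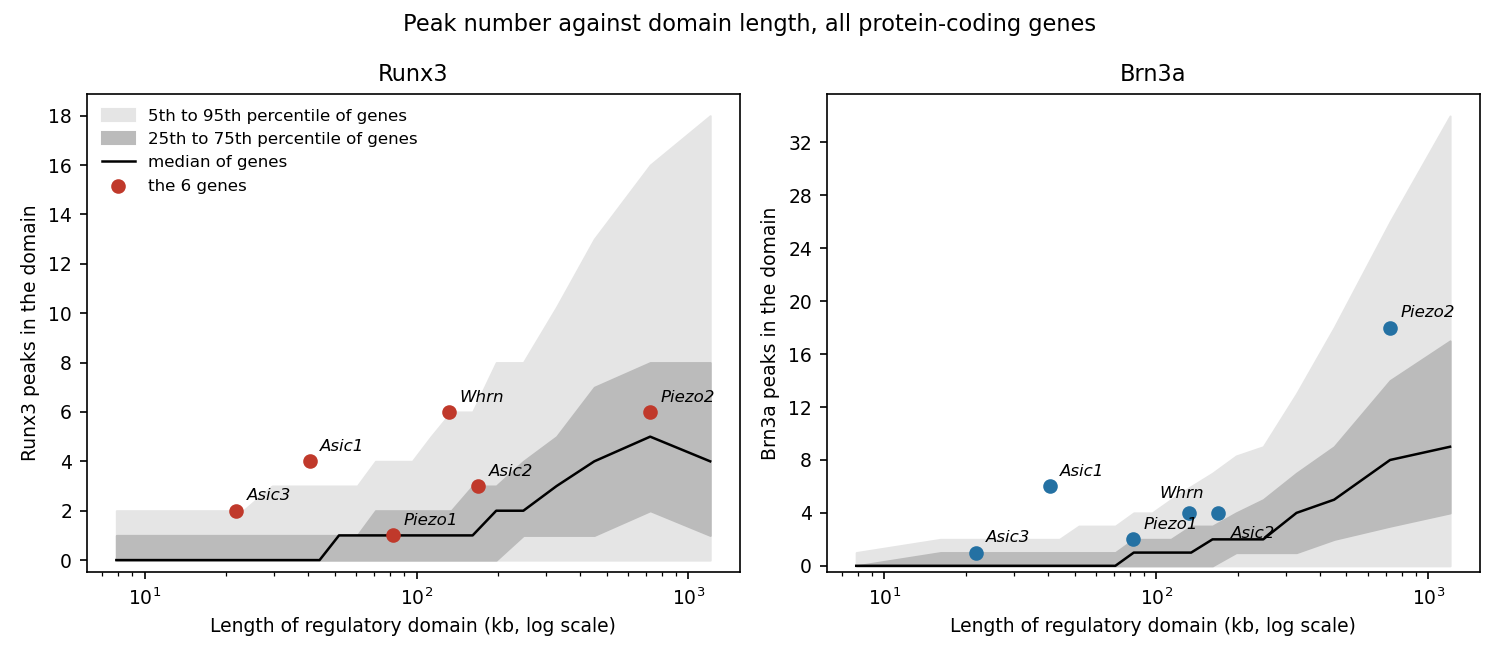
Runx3 peaks (left) and Brn3a peaks (right) in the regulatory domain of each of the 6 genes (points) against domain length in kb on a log scale. The line is the median, the dark band the 25th to 75th percentile and the light band the 5th to 95th percentile of all 21911 protein-coding genes, in 20 classes of domain length. Asic1 lies above the light band in both panels, with 4 Runx3 and 6 Brn3a peaks.

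Under the domain rule most of these peaks were not given to 1 gene only. All 22 Runx3 peaks and 33 of the 35 Brn3a peaks also lay in the domain of a neighbouring gene, the exceptions being the promoter peaks of Piezo2 and Whrn. Domains reach to the windows of their neighbours, so this overlap follows largely from the rule. By the nearest gene start, 11 of the 22 Runx3 peaks and 15 of the 35 Brn3a peaks belonged to a neighbour. That holds for 5 of the 9 co-bound regions, 2 at Piezo2 and 1 each at Asic1, Asic3 and Whrn. Of the 22 Runx3 peaks 10 lay within the body of the member gene, and of the 35 Brn3a peaks 22 did, mostly in introns, with 9 and 20. Shares of peaks in gene bodies or nearer to a neighbour were not computed over all peaks, so these counts have no background beside them.

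Other genes of mechanotransduction were counted in the same way. Of 34 such genes, all matched to the annotation, 23 had a Runx3 peak, 26 a Brn3a peak and 15 a co-bound region in the domain, with medians of 2, 2 and 0. Over all protein-coding genes these shares were 63%, 57.6% and 31.9%. The domains of the 34 genes span 9.14 kb to 1818 kb, and their counts were not set beside genes of like domain length. Promoter peaks of Runx3 were present at 9 of the 34 and of Brn3a at 7, beside 36.2% and 20.7% of all genes. Among 15 stretch-activated and candidate channels, Kcnk2, a stretch-sensitive potassium channel, and Trpc1 had the most Runx3 peaks, 6 each. In that group Tmc1, the transduction channel of hair cells, and Kcnk10 had the most Brn3a peaks, 8 each, and Trpv4, an osmosensitive channel, had the most co-bound regions, 3. Promoter peaks of Runx3 in that group were found at Tmem63a, Tmem63b, Tmem63c, Kcnk10, Trpc1 and Tmem87a, and of Brn3a at Tmem63b and Kcnk10.

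Among the 5 ASIC and ENaC relatives, Asic5 had the most of each, with 4 Runx3 peaks, 6 Brn3a peaks and 2 co-bound regions, and promoter peaks of both TFs. Asic4 had no Runx3 peak in its domain but 4 Brn3a peaks, of which 2 lay in its promoters. Among 9 channel partners, Mdfic, whose product binds Piezo channels, had the most, with 8 Runx3 peaks, 16 Brn3a peaks and 4 co-bound regions in the longest domain of the 34 genes, 1818 kb. Promoter peaks in that group were found at Stom for Runx3 and at Stoml1 for Brn3a. Among 5 partners of whirlin, Adgrv1, an adhesion receptor of the hair bundle, had the most Runx3 peaks, 7 in 768.3 kb, and Eps8, an actin-binding protein, had the most Brn3a peaks, 13, and the most co-bound regions, 2, in 476.8 kb. In the same group Adgrv1 had promoter peaks of both TFs and Myo15, the motor that carries whirlin in hair cells, had one of Brn3a.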

How the data were processed

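CUT&RUN libraries of E12.5 TrkC neurons were processed by the authors, whose notes name cutadapt, Bowtie, MACS2 and the builds GRCm38 and mm10. Their settings and versions are not given in the sources used here. Per antibody, the authors deposited 1 list of peak positions (base pairs), pooled over replicates (Runx3, at least 2 of 3 libraries, and Brn3a, at least 2 of 4), with the number of RBS per Runx3 peak and the presence of V$BRNF per Brn3a peak. No height, p-value or replicate value stands in them, depth is unknown, and no test between samples could be made. The table for H3K27Ac held the same positions as that for Runx3 and was not used.

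Peaks were assigned by centre to GENCODE M21 genes in Python 3.11.15 (numpy 2.4.6, pandas 2.3.3, scipy 1.17.1, matplotlib 3.10.9), tested on simulated data. The 2 mitochondrial Runx3 peaks were left out. Gene start is the 5′ end of the gene, and exons were numbered on the transcript that begins there. Every member, co-bound region and promoter peak is named, and of other genes those with most peaks per group or a promoter peak. Printed sequences are co-bound regions and promoter peaks with a RUNX or Brn3 word within at most 300 bp around the centre, none from chromosome 18, and 4 further peaks chosen after their values were seen. Of the listed comparison and marker genes, 2 are not reported here. Members and lists were chosen with earlier results of these data known. Alternatives changed the domain, peak width, overlap, motif and promoter limit.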

Additional observations from a re-analysis of the deposited data

How the results depend on the processing

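Of 38 alternative values, 29 stayed within 1.5 times the count, or within the counting interval of the share. Assigning each peak to the nearest gene start only left 11 Runx3 peaks, 20 Brn3a peaks and 4 co-bound regions at the 6 genes. Keeping peaks of at least the median width of each list left 12 Runx3 peaks, 16 Brn3a peaks and 5 co-bound regions, and 87.5% of the remaining Brn3a peaks carried V$BRNF. That share was not computed for all Brn3a peaks of such width. Over all Brn3a peaks, those with V$BRNF were wider, with a median of 206 bp against 136 bp. With the gene start taken from the transcript with the longest coding sequence, co-bound regions numbered 14, because the domain of Asic2 then held 6, and Asic2 led the genes with 11 Runx3 and 21 Brn3a peaks, beside 5 and 18 at Piezo2. Within the gene body and 5 kb on each side Asic2 also led, with 14 and 24, beside 1 and 11 at Piezo2. The word TTAATGA alone was present in 17.1% of the members' Brn3a peaks. With promoters taken at the gene start only, 2 members, Piezo2 and Whrn, had a Brn3a promoter peak, and with wider peaks only, 2 members, Piezo2 and Asic1, did. No member had a Runx3 promoter peak under any of the 3 promoter alternatives. No paired analysis was possible because the lists hold no value per replicate, and no replicate could be left out for the same reason. With no depth given, a region without a peak may be one below the detection limit of these lists.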
